A study of Bos taurus with 13 samples.

Results

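bta-miR-202 was followed through the small RNA of extracellular vesicles (EVs) of bovine follicular fluid, as 1 of 311 miRNAs listed in at least 1 of 13 libraries. It was found by its name alone, and it was listed in all 13. Each library was made from 1 pool of fluid, and the question was how the energy status of lactating cows after calving goes with the miRNAs that EVs carry. The cows were Holstein Friesian, the fluid came from large follicles aspirated by ovum pick-up, and samples from cystic ovaries or with blood contamination had been discarded before pooling. The ages of the animals are not given in the sources used here.

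Transient cows (TCs) were in negative energy balance at first and in positive balance later. They gave 3 pools from weeks 5 to 6 after calving (11 of 20 cows, labelled as early negative) and 3 pools from weeks 9 to 10 (7 of 20 cows, labelled as late positive). Always negative cows (ANCs) and always positive cows (APCs) gave 2 pools each at weeks 5 to 6. Each of these groups rests on 2 of 5 cows. Heifers, which had not calved and were all in positive balance, gave 3 pools from 8 animals. Which animals entered which pool is not given, so the spread between pools of a group may fall short of the spread between animals, and 2 animals per group limit ANCs and APCs as models of a phenotype.

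miR-202 is a conserved vertebrate miRNA found mainly in the gonads, in the testis and in the ovary. In the ovary it has been described in granulosa cells, the somatic cells that line the follicle and make oestradiol, and in oocytes. Like other miRNAs it pairs with target messenger RNAs through a short seed at its 5′ end and lowers their translation or stability. Vesicles in follicular fluid come from granulosa and theca cells, from the oocyte and its cumulus cells, and in part from blood plasma, so a gonadal miRNA can be set against miRNAs of red blood cells, leukocytes and epithelium in the same library. In the RefSeq gene table of assembly ARS-UCD2.0 the gene MIR202 stood on chromosome 26 between LOC101903854 and UTF1, with ADAM8 next beyond LOC101903854. The authors mapped to another build, UMD3.1, so no coordinates are given here. The files give the name bta-miR-202 without an arm, so whether the reads were from the 5p or the 3p arm cannot be told from them.

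bta-miR-202 was abundant in every pool. The authors deposited CPM, read numbers scaled to a common library total and adjusted by trimmed mean of M-values (TMM) factors, which correct for differences in library composition. Whole reads were recovered from these values, and bta-miR-202 had between 893 and 2361 of them per library, out of 145030 to 421435. Its share of all recovered reads ran from 0.212% (exact 95% interval 0.198 to 0.226) in APCs replicate 2 to 0.825% (0.779 to 0.873) in ANCs replicate 2, where the intervals cover counting error only. Among the miRNAs of its library it ranked between the 27th, in ANCs replicate 1, and the 59th, in APCs replicate 2. The floor of 3 reads stood at 7.91 to 18.96 deposited units, far below any value of bta-miR-202.

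To compare all groups, the reads of the 262 miRNAs listed in every library were put on 1 joint TMM scale. On that scale ANCs had 7016 CPM in replicate 1 and 8014 CPM in replicate 2. Heifers had 4680, 3410 and 6364 CPM in replicates 1, 2 and 3. TCs at weeks 9 to 10 had 4917, 3988 and 5395 CPM. Both ANC pools were therefore above every heifer pool and every pool of TCs at the later weeks, and the heifers themselves spread from 3410 to 6364 CPM. APCs had 5277 and 2983 CPM. TCs at weeks 5 to 6 had 4325, 3254 and 4426 CPM. The lowest of all 13 pools was APCs replicate 2, and the highest pool outside ANCs was heifers replicate 3.

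**Figure D1:**
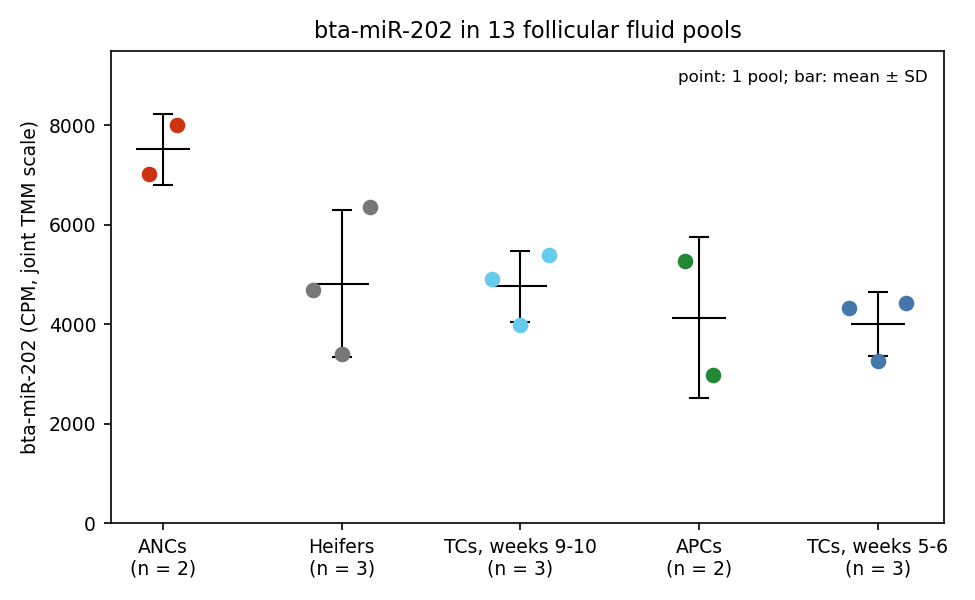
CPM of bta-miR-202 on the joint TMM scale (vertical axis, from 0) for each pool, in the order of the group means (horizontal axis). Points are pools and bars are the mean ± SD of a group. Both ANC pools, at 7016 and 8014 CPM, lie above all 11 other pools, of which the highest reached 6364 CPM.

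The group means fell in the order ANCs, heifers, TCs at weeks 9 to 10, APCs and TCs at weeks 5 to 6. ANCs averaged 7515 ± 706 CPM (SD, n = 2), heifers 4818 ± 1482 CPM (n = 3) and TCs at weeks 9 to 10 4767 ± 716 CPM (n = 3). APCs averaged 4130 ± 1622 CPM (n = 2) and TCs at weeks 5 to 6 4002 ± 649 CPM (n = 3). The values of ANCs overlapped with none of the other 4 groups. The values of the other 4 groups overlapped in all 6 of their pairs. No neighbouring pair below ANCs differed beyond its spread, and the means of heifers and TCs at weeks 9 to 10 differed by 0.02 on the log2 scale.

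The separation of ANCs was uncommon but not particular to bta-miR-202. Over the 247 miRNAs of the joint scale that passed the filter on low reads, ANCs did not overlap with any of the other 11 pools for 15 miRNAs, or 6.07%. They were the higher side for 9 of these 15, which is 3.64% of all. Such a separation from all other pools was seen for 4.45% of miRNAs in heifers, 2.83% in APCs, 2.02% in TCs at weeks 9 to 10 and 0.405% in TCs at weeks 5 to 6. ANCs and APCs had fewer pools than the other groups, and fewer pools separate more easily. Their shares are therefore not directly comparable with those of heifers and TCs. Those 9 were bta-miR-202, bta-let-7f, bta-miR-98, bta-miR-31, bta-miR-450b, bta-miR-99b, bta-miR-190a, bta-miR-374a and bta-miR-374b, of which let-7f, miR-99b, miR-190a and the miR-374 pair were named after their values were seen. The 6 on the lower side were bta-miR-142-5p and bta-miR-150, markers of leukocytes, bta-miR-451, a marker of red blood cells, and bta-miR-154c, bta-miR-199c and bta-miR-6120-3p, the last 3 also named after their values were seen. The other 4 leukocyte markers did not separate ANCs from all other pools. Of these, bta-miR-142-3p had its highest group mean in ANCs (27.4 CPM), but it held only 2 to 13 reads per library.

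Exact two-sided permutation tests over the 10 pairs of groups left no difference past the threshold. ANCs against TCs at weeks 5 to 6 and against TCs at weeks 9 to 10 gave an exact p of 0.1 each, the smallest that 2 pools against 3 allow. TCs at weeks 9 to 10 did not overlap with ANCs for 27.5% of the 247 miRNAs. ANCs against heifers gave an exact p of 0.2, and ANCs against APCs an exact p of 0.3333, the smallest that 2 against 2 allow. Adjusted over the 10 pairs, the exact p-values ran from 0.5 to 1. No exact test of 2 pools against 2 or 3, or of 3 against 3, can reach 0.05 here, since the smallest p for 3 against 3 is also 0.1.

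The order below ANCs depended on the scaling. ANCs were highest of the 5 groups under all 3 scalings, that is the joint TMM scale, CPM of all recovered reads and the values as deposited. Both other scalings kept the order of 8 of the 10 pairs of group means. By total reads TCs at weeks 9 to 10 averaged 5354 CPM and heifers 5189 CPM, and in the deposited values they averaged 5318 and 5082. Each time TCs at the later weeks were then above heifers. The gap between ANCs and the other pools was present by total reads (7975 and 8254 CPM against at most 6810), but in the deposited values ANCs replicate 1 stood at 6561 and heifers replicate 3 at 6869. The deposited values of the ANC and APC pools equalled their values when only these 2 groups were scaled together. Deposited values of different groups may therefore not share 1 scale.

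Depth, taken here as the recovered reads of the listed miRNAs, moved with these values. These reads are only part of those sequenced, so few of them need not mean shallow sequencing. The 2 ANC libraries held 222091 and 145030 recovered reads, fewer than every other library except heifers replicate 1, with 183575. Over the 13 pools bta-miR-202 and the log2 of the recovered reads had a Pearson r of -0.66 (permutation p = 0.0135), and over the 11 pools without ANCs an r of -0.31 (permutation p = 0.369). Without the 2 pools farthest from the median depth, ANCs replicate 2 and heifers replicate 1, r was -0.64 (permutation p = 0.0316). CPM divide by nearly the same total of reads, so part of a negative r may be built in. The permutation p-values take no account of this. The part of depth in the level of ANCs was not tested. Counting error itself was small, since the coefficient of variation from counting was 2.06 to 3.35% per library, against 9.39 to 39.3% between the pools of a group.

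With a mean of 4927 CPM bta-miR-202 ranked 43 of the 247 miRNAs, next to bta-miR-152 (5051 CPM) above it and bta-miR-125b (4621 CPM) below it. CPM of different miRNAs also carry differences in how well each is captured in a library, so these ranks are approximate. The pools of a group differed less in bta-miR-202 than in most miRNAs. Its SD within groups was 0.35 on the log2 scale, against a median of 0.57 over all 247, and 19.0% of miRNAs had a smaller one. miRNAs of similar abundance had SDs of similar size. Among the 37 miRNAs within 2-fold of its mean CPM, itself included, the median was 0.37 and 14 had a smaller SD. Between groups, the SD of its 5 group means was 0.38 on the log2 scale, near the median of 0.42, and 41.3% of miRNAs had a smaller one.

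**Figure D2:**
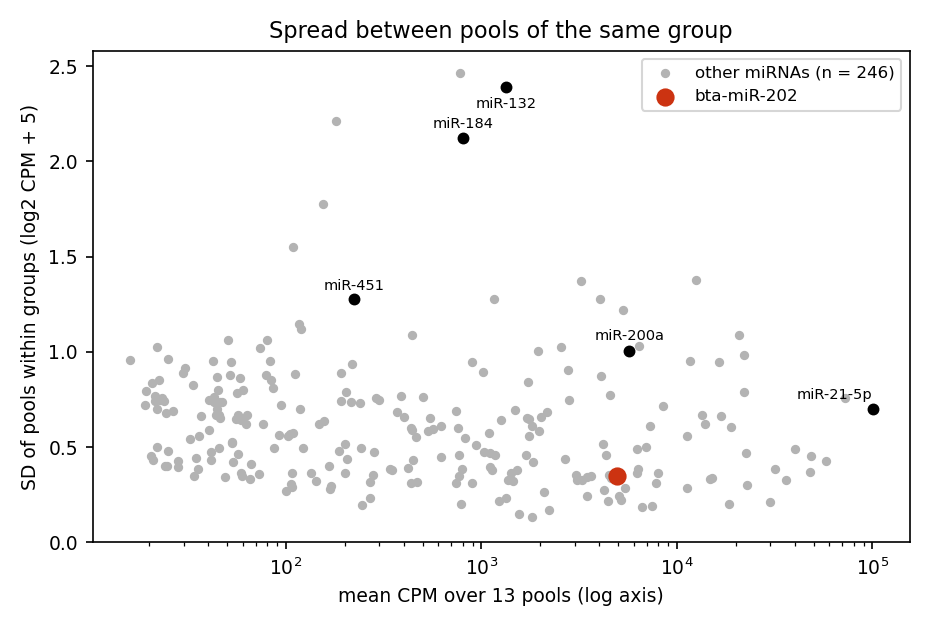
SD between pools of the same group on the log2(CPM + 5) scale (vertical axis) against mean CPM over 13 pools (horizontal log axis) for 247 miRNAs. bta-miR-202, in red at 4927 CPM and an SD of 0.35, lies low in the cloud, below bta-miR-200a of similar abundance and far below bta-miR-132 at 2.39, both marked in black with 3 other members of the marker lists.

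Groups were then compared in pairs, with TMM factors computed anew for each pair and limma fitted to log2(CPM + 5) over all tested miRNAs. Calls of differential expression used the thresholds of the study, which ask for 1 or more on the log2 scale in either direction, p under 0.05 and a Benjamini-Hochberg value no higher than 0.25. bta-miR-202 was called in none of the 6 comparisons. Its levels were higher in ANCs in each comparison that held them, by 0.77 to 0.95 on the log2 scale. These comparisons share the same ANC pools. CPM given for a pair are on the scale of that pair and differ a little from those above.

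ANCs against TCs at weeks 5 to 6 set a lasting against a transient energy deficit at the same weeks. bta-miR-202 was 6510 and 8292 CPM in ANCs and between 3339 and 4343 CPM in TCs, so the groups did not overlap. The log2 fold change was 0.90 (SE 0.34, 95% interval 0.11 to 1.70), which is 1.87-fold, with an adjusted p of 0.5495 by limma. The exact permutation p was 0.1. Its unadjusted limma p of 0.0314 ranked 11 of 225 miRNAs. No miRNA was called in this comparison (0% of 225) and 18 had an unadjusted p under 0.05. edgeR and DESeq2 on the recovered reads also called 0, and without ANCs replicate 2 limma called 7. Groups did not overlap for 27.1% of the 225.

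ANCs against APCs set constant negative against constant positive balance. In ANCs the values were 6561 and 7563 CPM, and in APCs 4980 and 2651 CPM. The groups did not overlap, but the APC pools were further from each other than the nearer one was from ANCs. The log2 fold change was 0.95 (SE 0.46, 95% interval -0.23 to 2.14) with an adjusted p of 0.5355 by limma. It was 0.50 without APCs replicate 2 and 1.41 without APCs replicate 1. No miRNA was called (0% of 207), and 17 had an unadjusted p under 0.05. edgeR also called 0, while DESeq2 called 6, and limma called 21 without ANCs replicate 2, 36 without APCs replicate 1 and 7 without APCs replicate 2. Groups did not overlap for 43.5% of the 207, so the separation of bta-miR-202 was near the background.

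ANCs against heifers set cows under a lasting deficit against animals that did not lactate. The ANC pools stood at 7414 and 9491 CPM, and the heifers between 3577 and 6960 CPM without overlap. The log2 fold change was 0.77 (SE 0.39, 95% interval -0.12 to 1.66) with an adjusted p of 0.245 by limma, which missed the threshold on fold change and on p (0.080). Of 215 miRNAs 40 were called, or 18.6%, with 14 higher and 26 lower in ANCs (4 and 41 on the deposited values), and groups did not overlap for 47.4%. The size of this difference moved with the heifer pools. Without heifers replicate 3, the log2 fold change was 1.02 with an adjusted p of 0.0938, past all thresholds, and without heifers replicate 2 it was 0.51. It was also 1.02, with an adjusted p of 0.135, in the fit with the replicate number as a block, which leaves replicate 3 without a partner.

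APCs against heifers set lactation without a deficit against heifers, and bta-miR-202 showed no clear direction. It was 5525 and 2942 CPM in APCs and between 3107 and 6044 CPM in heifers, with overlap. The log2 fold change of -0.08 (SE 0.45, 95% interval -1.16 to 1, adjusted p = 0.938 by limma) had an interval that holds changes of 2-fold in either direction. It turned to 0.37 without APCs replicate 2 and to 0.17 without heifers replicate 3. In this comparison 12.4% of 233 miRNAs were called, 22 higher and 7 lower, and groups did not overlap for 36.1%. The split was 14 and 49 by total reads and 21 and 28 on the deposited values. The 29 calls became 3 without heifers replicate 1, 46 without heifers replicate 3, 48 without APCs replicate 1 and 45 without APCs replicate 2.

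TCs at weeks 5 to 6 had between 3272 and 4429 CPM and heifers between 3474 and 6312 CPM on their common scale. The values overlapped. Pools of the same number were taken as pairs, and TCs were the lower side in each, at 4258 against 4641 CPM, 3272 against 3474 CPM and 4429 against 6312 CPM. No label gives this pairing, which was chosen from the same data, and the numbers also went with the day of RNA measurement. The log2 fold change was -0.24 (SE 0.29, 95% interval -0.93 to 0.45) with an adjusted p of 0.678 by limma. With the replicate number as a block the fold change was also -0.24, with an adjusted p of 0.383. Without TCs replicate 2 it was 0.04. The comparison called 6.96% of 230 miRNAs, with 4 higher and 12 lower in TCs, and groups did not overlap for 22.2%. DESeq2 called 36, of which 23 were higher and 13 lower, and limma with a term for the RNA day called 0, with 30 at an unadjusted p under 0.05. The 16 calls became 29 under the block (14 higher and 15 lower), 46 without TCs replicate 2 and 29 without heifers replicate 3. Without TCs replicate 1 or 3 or heifers replicate 1 or 2 no miRNA was called.

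TCs at weeks 9 to 10 against weeks 5 to 6 set 1 phenotype after the recovery of balance against the time before it. Some cows may be shared between the times, but the fit took the pools as independent. Week after calving and balance changed together, so they cannot be told apart here. bta-miR-202 lay between 3873 and 5658 CPM at the later weeks and between 3386 and 4611 CPM at the earlier ones. The ranges overlapped. The log2 fold change was 0.27 (SE 0.30, 95% interval -0.42 to 0.95) with an adjusted p of 0.7645 by limma. No miRNA was called (0% of 224), 12 had an unadjusted p under 0.05, and edgeR and DESeq2 called 0 and 1. Without TCs at weeks 5 to 6 replicate 2, limma called 22.

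**Figure D3:**
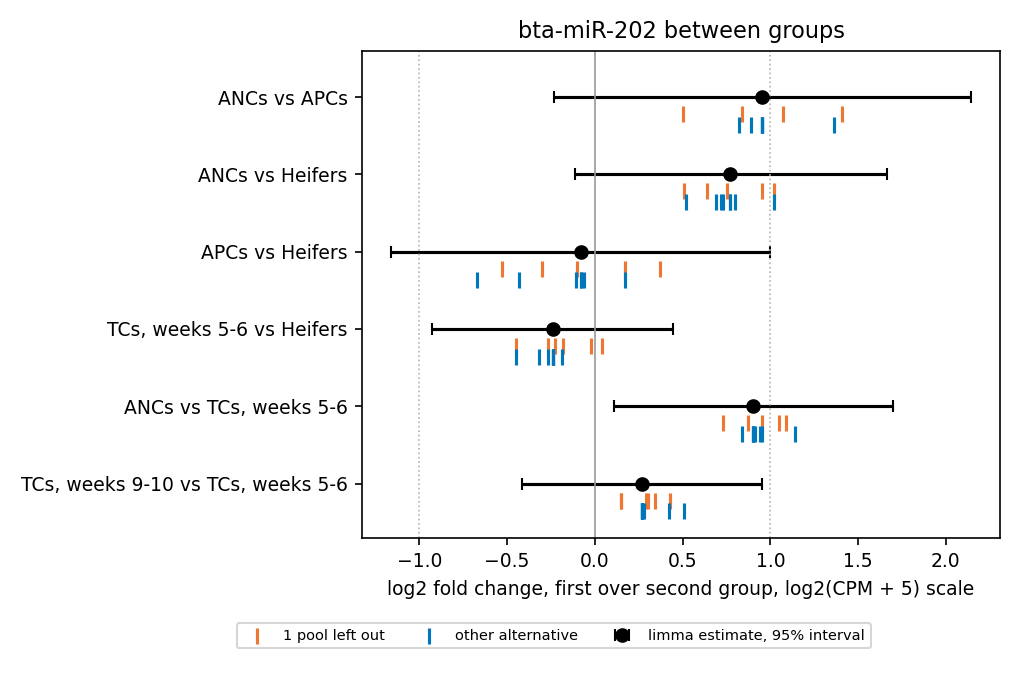
Log2 fold change of bta-miR-202 in 6 comparisons (horizontal axis, first over second group on the log2(CPM + 5) scale), with black points for the limma estimate and bars for its 95% interval. Short orange lines leave out 1 pool each, short blue lines are the other alternatives, and dotted lines mark the threshold of 1. The 3 comparisons with ANCs lie between 0.77 and 0.95 and stay above 0 in every alternative shown. Those 3 share the same ANC pools, which overlapped with no group compared, so leaving out 1 pool could hardly reverse their sign. The comparison of APCs against heifers, whose values overlapped, falls on both sides of 0.

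RNA was measured on 2 days, with replicates 1 on the first and replicates 2 and 3 on the second where a day was listed. Within days, on the joint scale, ANCs were above heifers by 0.58 and 0.78 on the log2 scale and above TCs at weeks 5 to 6 by 0.70 and 1.08. TCs at weeks 5 to 6 were below heifers by 0.11 and 0.30, and TCs at weeks 9 to 10 were above the earlier weeks by 0.19 and 0.29. For ANCs against APCs only the first day gave a value, 0.41, and for APCs against heifers only the first day, 0.17. Each of these values rests on 1 or 2 pools a side and has no test. Both ANC pools were above all other pools on the joint scale, so the sign of every difference with ANCs was set beforehand.

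bta-miR-202 was next set against 4 lists of cell type markers, summed per pool on the joint scale. The granulosa list stands for a cell in which miR-202 itself has been described, so it is not a list of other cells. In bulk EV RNA, fewer vesicles from a cell type and less of a miRNA in each vesicle cannot be told apart. The erythroid list held bta-miR-451 and bta-miR-486, which are abundant in red blood cells. The leukocyte list held bta-miR-223 of myeloid cells, bta-miR-142-3p and bta-miR-142-5p of all blood lineages, bta-miR-150 of lymphocytes, and bta-miR-155 and bta-miR-146a of activated immune cells. The epithelial list held the miR-200 family (bta-miR-200a, bta-miR-200b, bta-miR-200c, bta-miR-141 and bta-miR-429), which keeps epithelial cells in their state by repressing ZEB factors, with bta-miR-205, bta-miR-182, bta-miR-183 and bta-miR-184. The paper cites a change of miR-183 with oestradiol in rat granulosa cells, so this list need not be foreign to the follicle. The granulosa list held 11 miRNAs described in follicles, among them bta-miR-132, bta-miR-224, bta-miR-378, bta-miR-375, bta-miR-31, bta-miR-21-5p and the linked bta-miR-424-5p, bta-miR-503-5p, bta-miR-542-5p, bta-miR-450a and bta-miR-450b. bta-miR-203 and bta-miR-212 were in none of the libraries used here, bta-miR-144 and bta-miR-383 were listed only for heifers, and bta-miR-96 in 10 libraries, so these 5 were not summed.

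Markers of blood cells were low in ANCs, the group with the most bta-miR-202, and the part of blood or epithelial RNA in its level was not tested. Summed erythroid markers were 131 and 1145 CPM in ANCs and 751 to 10962 CPM in the other groups. bta-miR-451 had 0 reads in ANCs replicate 1, and both ANC pools were below all others in it (at most 33.5 CPM against at least 37.7 CPM). Summed leukocyte markers were 745 and 1580 CPM in ANCs, 1573 to 4820 CPM in the other cows and 4868 to 6077 CPM in heifers. All 3 heifer pools were above all cow pools in this sum. Summed epithelial markers were 5542 and 8858 CPM in ANCs, 17326 to 27145 CPM in heifers and 6111 to 19831 CPM in TCs at weeks 9 to 10. They spread widely in TCs at weeks 5 to 6 (6462 to 33419 CPM) and in APCs (6296 and 31321 CPM).

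Ratios within a library need no scaling between libraries. bta-miR-202 was 5.07 and 9.42 times the summed leukocyte markers in ANCs, 0.561 to 1.12 times in heifers and 0.751 to 3.43 times in the other cows. To the epithelial sum it stood at 0.905 and 1.27 in ANCs, and at 0.0952 to 0.838 in all other pools. To the erythroid sum it stood at 7.00 and 53.7 in ANCs and at 0.364 to 5.76 elsewhere. ANCs were above every other pool in all 3 ratios. The same held for the granulosa sum, to which bta-miR-202 stood at 0.0999 and 0.110 in ANCs and at 0.0138 to 0.077 elsewhere. The separation was therefore not particular to the blood and epithelial lists. All these ratios share bta-miR-202 as numerator, which by itself was higher in both ANC pools than in every other pool. Within APCs, the ratio to the epithelial sum was 0.838 in replicate 1 and 0.0952 in replicate 2, so the 2 pools of 1 group spanned the whole range of the pools outside ANCs.

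In the comparison of ANCs with heifers, where 12.1% of the 215 miRNAs were called lower and 6.51% higher, both erythroid markers, all 5 tested leukocyte markers and 6 of 9 epithelial markers were called lower in ANCs. bta-miR-223 fell by 2.79 on the log2 scale (adjusted p = 0.0749 by limma), bta-miR-451 fell by 3.82 and bta-miR-205 fell by 2.14. The medians of the lists were -3.14 (erythroid), -2.16 (leukocyte) and -1.57 (epithelial), beside 0.00 over all tested miRNAs. Of the 11 granulosa markers, bta-miR-424-5p (1.66), bta-miR-542-5p (1.37) and bta-miR-450b (1.06) were called higher and bta-miR-132 (-3.61) lower, with a median of -0.06. These calls share their libraries with the value of bta-miR-202, whose log2 fold change was 0.77 in the same comparison. Without ANCs replicate 1 no miRNA was called, without heifers replicate 1 the 40 calls became 6, and without heifers replicate 2 they became 17.

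In the other comparisons fewer markers were called. Against heifers, TCs at weeks 5 to 6 were lower in 3 of 5 tested leukocyte markers (bta-miR-146a, bta-miR-155 and bta-miR-223) and 3 of 9 epithelial markers (bta-miR-183, bta-miR-184 and bta-miR-205), and higher in bta-miR-375 of the granulosa list, where 5.22% of all 230 miRNAs were called lower and 1.74% higher. APCs were called lower than heifers in bta-miR-184 and bta-miR-205 and in no other tested member of the 4 lists, beside 3% of all 233 miRNAs called lower and 9.44% called higher. In the remaining 3 comparisons no marker was called, as no miRNA was.

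Over the 13 pools bta-miR-202 went down where the epithelial sum went up. On the log2(CPM + 5) scale Pearson's r was -0.70 (permutation p = 0.00899, 0.018 adjusted over the 4 lists) and Spearman's rho -0.71 (permutation p = 0.00895, adjusted 0.0179). Without the 2 pools farthest from the median of the epithelial sum, ANCs replicate 1 and TCs at weeks 9 to 10 replicate 1, r was -0.68. Over the 11 pools without ANCs it was -0.67, with an adjusted permutation p of 0.0532. Taken as deviations from the group means, r was -0.74, so the relation was also present among pools of the same group. It was -0.47 on CPM of total reads, with an adjusted permutation p of 0.209. All 9 epithelial members had a negative r of their own, from -0.77 for bta-miR-200a to -0.22 for bta-miR-184, with a median of -0.68. Several belong to the miR-200 family and all are parts of the sum, so they are not 9 separate observations. With the mean of the log2 values of the members in place of the sum, r was -0.59 and the adjusted permutation p 0.147, so the relation missed the threshold when each member had the same weight. Over the 246 other miRNAs of the joint scale the median r was -0.02, with 129 negative and 117 positive.

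The granulosa list gave opposite answers by its members. Its sum had an r of -0.76 with bta-miR-202 (permutation p = 0.00286, adjusted 0.0114, rho -0.77 with permutation p = 0.00278, adjusted 0.0111). However, bta-miR-21-5p made up 83.6% of that sum, and bta-miR-21-5p is abundant in most cell types. Without the 2 pools farthest from the median, APCs replicate 2 and TCs at weeks 5 to 6 replicate 2, r was -0.59 with a permutation p of 0.0557. The mean of the log2 values of the members, which gives each the same weight, had an r of 0.14. Of the 11 members, 7 had a positive r, highest for bta-miR-450b (0.72), bta-miR-542-5p (0.61), bta-miR-31 (0.61) and bta-miR-424-5p (0.41). The 4 negative ones were bta-miR-21-5p (-0.73), bta-miR-375 (-0.69), bta-miR-378 (-0.54) and bta-miR-503-5p (-0.16).

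The blood lists gave weaker relations. The leukocyte sum had an r of -0.58 (permutation p = 0.0396, adjusted 0.0528) and a rho of -0.55 (permutation p = 0.0557, adjusted 0.0742). Without ANCs replicate 1 and heifers replicate 2 its r was -0.37. All 6 leukocyte members had a negative r, from -0.70 for bta-miR-142-5p to -0.08 for bta-miR-142-3p. The erythroid sum had an r of -0.29 (permutation p = 0.341, adjusted 0.341) and a rho of -0.14 (permutation p = 0.657, adjusted 0.657), which became 0.09 in r without ANCs replicate 1 and TCs at weeks 9 to 10 replicate 2. Without ANCs replicate 1 alone its r was -0.01. Pools may share animals within a group and TCs were sampled at both times, so the 13 points are not fully independent.

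**Figure D4:**
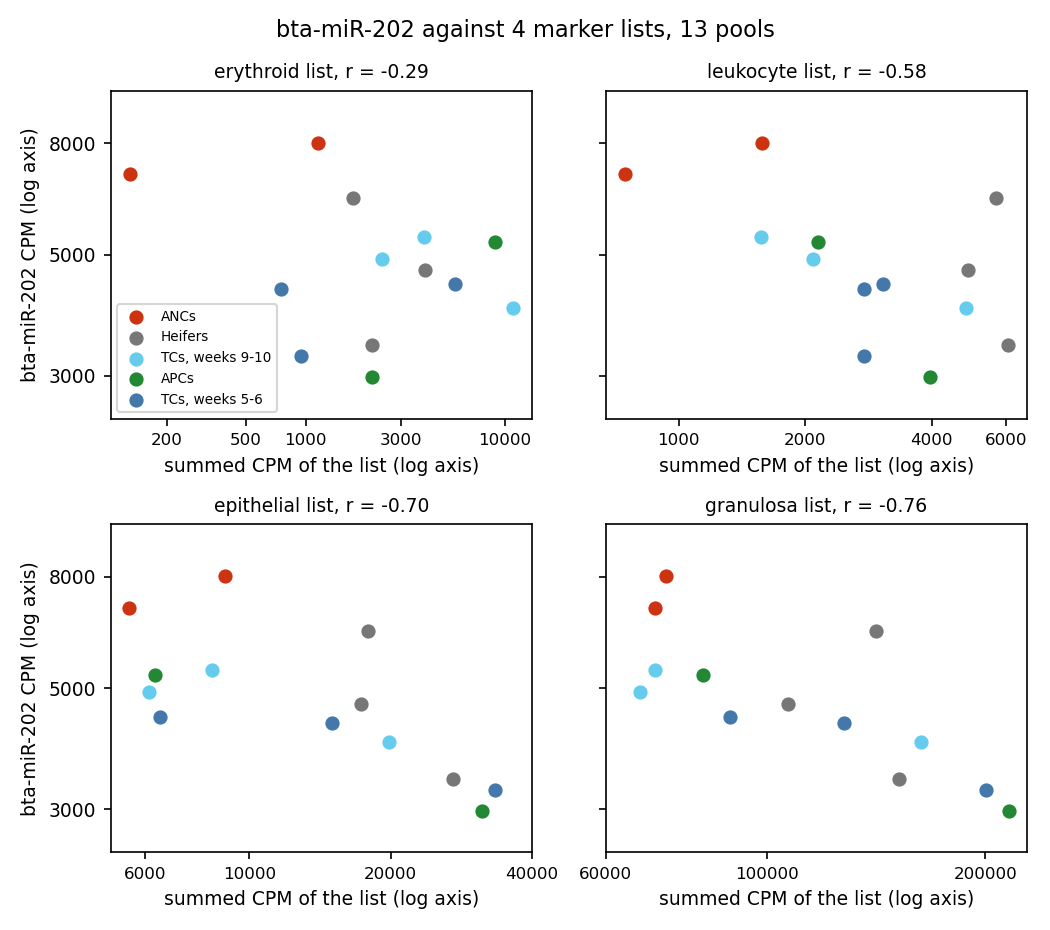
CPM of bta-miR-202 (vertical log axis) against the summed CPM of 4 marker lists (horizontal log axes) for 13 pools on the joint TMM scale, coloured by group, with Pearson's r of log2(CPM + 5) above each panel. In the epithelial and granulosa panels (r of -0.70 and -0.76) the pools tend to descend from the upper left to the lower right. ANCs are highest, APCs replicate 2 is lowest and heifers replicate 3 is the highest pool outside ANCs. The erythroid panel (r of -0.29) shows no such line.

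Other tissues were represented by few miRNAs. bta-miR-122, the main miRNA of hepatocytes, averaged 1627 CPM in ANCs, 3245 CPM in APCs, 4788 and 3248 CPM in TCs at the earlier and later weeks and 11614 CPM in heifers. Its r with bta-miR-202 was -0.50. The muscle miRNAs bta-miR-1, bta-miR-206 and bta-miR-133a averaged 340, 51.9 and 44.9 CPM over all pools, and their r with bta-miR-202 lay between -0.18 and 0.21.

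The miRNAs whose levels over the 13 pools were most like bta-miR-202 were found by Pearson's r of log2(CPM + 5), given as a description without a test. They were bta-miR-195 (r of 0.78), bta-miR-98 (0.75), bta-miR-450b (0.72), bta-miR-574 (0.69) and bta-miR-497 (0.68). bta-miR-195 and bta-miR-497 are made from 1 cluster and belong to the miR-15 family, which restrains the cell cycle, and bta-miR-98 is a member of the let-7 family. Only 3 of the 246 reached an r of 0.7, whereas 11 were at -0.7 or lower. Least like were bta-miR-10a (-0.80), a miRNA of a HOX cluster, bta-miR-200a (-0.77) and bta-miR-221 (-0.76), which targets cell cycle inhibitors. bta-miR-195 averaged 3767 CPM in ANCs and 2258 to 3306 CPM in the other groups. bta-miR-10a went the other way, with 1247 CPM in ANCs and 3742 CPM in APCs.

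**Figure D5:**
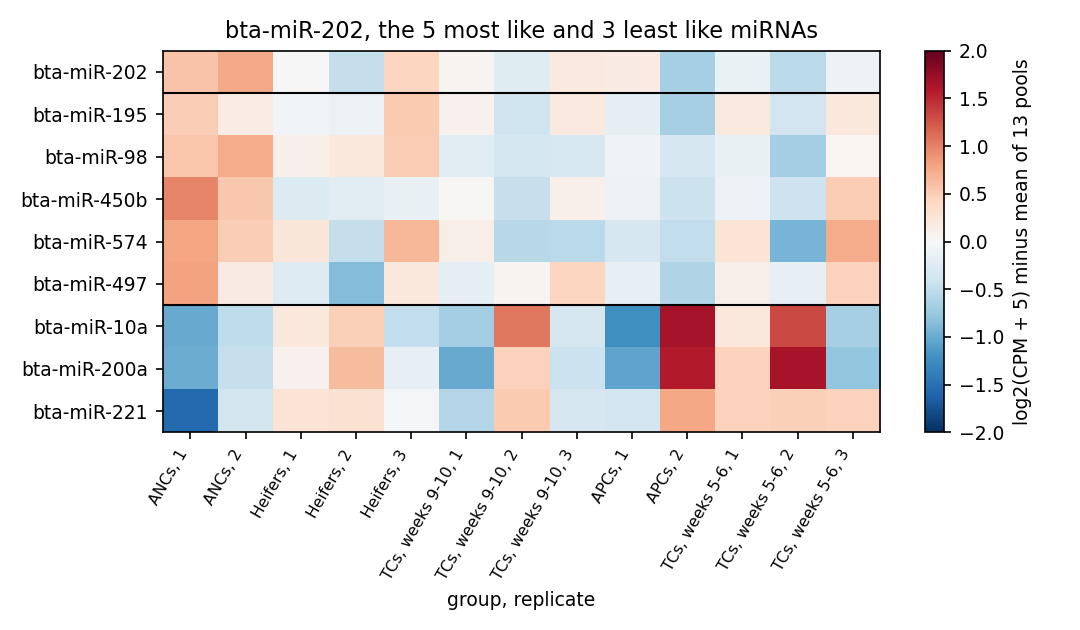
Deviation of log2(CPM + 5) from the mean of 13 pools (colour, red above and blue below the mean) for bta-miR-202, the 5 miRNAs most like it and the 3 least like it (vertical axis), by group and replicate (horizontal axis). ANCs are above the mean in the first 6 miRNAs and below it in the last 3, and APCs replicate 2 shows the reverse, at -0.66 for bta-miR-202 and 1.66 for bta-miR-10a. The rows were chosen by r with bta-miR-202 over these same pools, so this shared pattern follows in large part from the choice.

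When each group mean was taken away, so that only differences between pools of the same group remained, the most like miRNAs were bta-miR-210 (r of 0.84), bta-miR-195 (0.83), bta-miR-2483-5p (0.78), bta-miR-7859 (0.77) and bta-miR-132 (0.73). Only bta-miR-195 was among the first 5 both ways. bta-miR-210 is the miRNA best known for its induction by low oxygen, and bta-miR-132 is induced by gonadotrophins in granulosa cells. bta-miR-132 had an r of 0.12 with bta-miR-202 over the pools as they were, since it was lowest in ANCs (84.4 CPM on average) and varied from 68.3 to 6420 CPM over all pools. The deviations have 8 degrees of freedom, so these values are loose.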

How the data were processed

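Small RNA of EVs from 13 pools of follicular fluid was sequenced by the authors with the QIAseq miRNA kit, trimmed with Cutadapt 1.11, mapped to UMD3.1 with Bowtie2 2.2.2, annotated against miRBase and normalized with TMM. The deposited values are CPM adjusted by TMM factors and not logged. Those of different groups may not share 1 scale. In libraries whose deposited values sum to more than plain CPM can reach they were recorded as a signal, although the authors made them in the same way. Groups and replicate numbers were taken from the labels. bta-miR-202 and the marker lists were chosen with earlier results of these data known. Named miRNAs are bta-miR-202, members of the lists, the 5 most and 3 least like it by r, the 5 most like it in deviations from group means, and its neighbours in mean CPM. Beyond this rule, the miRNAs that separated ANCs from all other pools were named after their values were seen.

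Low values of a library lie at whole multiples of what 1 read is worth, which gave back the reads, and all 3681 values came out whole within a tolerance of 0.1 reads (100% in each library). On simulated libraries the reads were right in 20 of 20. Libraries held 145030 to 421435 recovered reads of listed miRNAs, with a median of 327359. Library sizes were scaled with TMM (edgeR 4.0.16) over miRNAs listed for both groups, or for all 13 libraries on the joint scale. miRNAs were filtered with filterByExpr (minimum count 10, minimum total 15). Each pair of groups was compared on log2(CPM + 5) by limma 3.58.1 (trend in the variance, libraries of the pair only), with Benjamini-Hochberg adjustment, and tested on simulated data. Fold changes on that scale understate changes of low miRNAs. Exact permutation tests and correlations (100000 permutations) used log2(CPM + 5) on the joint scale. p-values measure the spread between pools.

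Alternatives were a pseudocount of 1 CPM, no filter, total reads, the deposited values, edgeR's quasi-likelihood test and DESeq2 1.42.0 on recovered reads, a replicate block, the day of RNA measurement and leaving out each pool. Same-numbered pools of TCs at weeks 5 to 6 and of heifers deviated together (r of 0.22, 0.38 and 0.39 over miRNAs), so their numbers were taken to pair them. This pairing was chosen from the same data and no label gives it. Same-numbered pools of ANCs and APCs also deviated together (r of 0.22) but were not paired.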

Additional observations from a re-analysis of the deposited data

How the results depend on the processing

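bta-miR-202 kept its direction and its side of the thresholds in 71 of 77 alternative fits. In the comparisons with ANCs the values did not overlap, so leaving out 1 pool could hardly turn the direction. In ANCs against heifers bta-miR-202 became called with the replicate block and without heifers replicate 3 (1.02 on the log2 scale in both). It reversed in APCs against heifers with the replicate block and without heifers replicate 3 (0.17 in both) and without APCs replicate 2 (0.37), and in TCs at weeks 5 to 6 against heifers without TCs replicate 2 (0.04). The cause was not tested. Over all alternatives the log2 fold change and the adjusted p of limma, edgeR or DESeq2 ran from 0.50 to 1.41 and 0.28 to 0.936 in ANCs against APCs, from 0.51 to 1.02 and 0.0938 to 0.585 in ANCs against heifers, and from 0.73 to 1.14 and 0.389 to 0.882 in ANCs against TCs at weeks 5 to 6. They ran from -0.67 to 0.37 and 0.366 to 0.978 in APCs against heifers, from -0.45 to 0.04 and 0.383 to 0.966 in TCs at weeks 5 to 6 against heifers, and from 0.15 to 0.51 and 0.483 to 0.914 between the TC times. Leaving out 1 pool gave 0.50 to 1.41, 0.51 to 1.02, 0.73 to 1.09, -0.53 to 0.37, -0.45 to 0.04 and 0.15 to 0.43 in the same order. By total reads the medians of all tested miRNAs moved to 0.40 in ANCs against APCs, -0.54 in APCs against heifers, -0.24 in TCs at weeks 5 to 6 against heifers, 0.14 in ANCs against TCs and 0.17 between the TC times, and bta-miR-202 to 1.36, -0.67, -0.45, 1.14 and 0.51. Where a group was left with 1 pool, that pool was assumed to vary like the others. In ANCs against APCs and APCs against heifers, the day of RNA measurement could not be fitted.

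Counts of called miRNAs moved more. For ANCs against APCs the 0 became 6 with DESeq2 and 28 with the replicate block, and 0 to 36 without 1 pool. For ANCs against heifers the 40 became 65 with the block and 0 to 54 without 1 pool. For APCs against heifers the 29 became 63 by total reads, 49 on deposited values and 3 to 48 without 1 pool. For TCs at weeks 5 to 6 against heifers the 16 became 26 by total reads, 36 with DESeq2, 29 with the block, 0 with the day as a covariate and 0 to 46 without 1 pool. For ANCs against TCs at weeks 5 to 6 the 0 became 2 with the block and 0 to 7 without 1 pool. Between the TC times the 0 became 1 with DESeq2 and 0 to 22 without 1 pool. The replicate block changed no other call on bta-miR-202. Outside TCs at weeks 5 to 6 against heifers the numbers were not taken to pair the pools.

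By total reads the correlation with the epithelial sum was -0.47 and with the granulosa sum -0.55, neither past the threshold. Alternatives chosen after seeing the data were the mean of log2 values, pools left out and the granulosa list without bta-miR-21-5p (r of -0.62, adjusted permutation p = 0.0456). Without both ANC pools r was -0.67 for the epithelial and -0.70 for the granulosa list (adjusted permutation p = 0.0532 for both), and 0.25 for the erythroid list, which was also 0.25 in deviations from group means. With the mean of log2 values r was -0.59 for the epithelial list, past the threshold no longer (adjusted permutation p = 0.147), and 0.14 for the granulosa list. Leaving out each pool gave -0.41 to -0.01 (erythroid), -0.77 to -0.45 (leukocyte), -0.79 to -0.64 (epithelial) and -0.87 to -0.69 (granulosa). Without APCs replicate 2 the epithelial and granulosa relations missed the threshold (adjusted permutation p = 0.0584 and 0.0578), and without TCs at weeks 5 to 6 replicate 2 or heifers replicate 3 the leukocyte relation passed it (0.04 and 0.00531). The order of the groups held for 8 of 10 pairs by total reads and on deposited values, which may not share 1 scale between groups. Depth gave a counting error of at most 3.35% for bta-miR-202. Whether depth has a part in its level was not tested.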
